A study of Mus musculus with 5 samples.

Results

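The septins are a family of GTP-binding proteins of the cytoskeleton, and 10 of their genes, Sept2 to Sept11, were followed in N2a mouse neuroblastoma cells after knockdown of Ewsr1. The 10 members were taken by their GENCODE M21 symbols from the 54838 identifiers listed, and 9 of them were among the 14899 genes tested. The family was chosen because Sept8 was already known to be lower after the knockdown in these libraries. For that reason every difference of a member between the groups is given as a description, with no p-value.

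Septins assemble into rods and filaments that bind membranes, actin and microtubules. They act as scaffolds and diffusion barriers at the cleavage furrow, at the base of cilia and, in neurons, at branch points and the necks of dendritic spines. The proteins fall into the SEPT2, SEPT3, SEPT6 and SEPT7 groups, each of which takes a set place in the rod, and proteins of the same group can stand in for one another. Sept8 belongs to the SEPT6 group with Sept6, Sept10 and Sept11.

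Total RNA was measured in cells that received a control siRNA (siCtrl, n = 2) or an siRNA against Ewsr1 (siEwsr1, n = 3), which encodes an RNA-binding protein of the FET family. In both groups 50000 cells of this established line were transfected in a double pulse and collected after 24 hours. The labels give the siRNA as 100 µM and do not say whether 1 or several oligonucleotides were used. Nor is it said that the replicates were separate cultures, so the errors given here may be technical only.

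Counted reads per library ranged from 15045774 to 21339459, so that 1 read was worth 0.0469 to 0.0665 CPM (reads scaled to the library total). Levels are RPKM, which are scaled to the library total and to the exonic length of the gene, after the lost decimal points of the deposited values were restored. Ewsr1 stood at 71.7 and 72.3 RPKM in siCtrl and at 35.7, 36.3 and 37.6 RPKM in siEwsr1. The groups did not overlap, and the log2 difference was -0.95 (SE 0.08), so the target gene goes with the labels. For siCtrl replicate 1 the digits of Ewsr1 also gave whole reads at 7.17 RPKM, and 71.7 RPKM was chosen because it lies near the other libraries. Of the 10 neuronal and neuroblastoma markers, 9 reached 1 RPKM on average and their summed level was 601 to 679 RPKM in all libraries. None of the 5 glial markers found did so, nor did any of the 3 immune markers.

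To show how alike the paralogues are and yet how far they can be told apart, the coding bases of the P-loop, which binds the phosphates of GTP, are given for the SEPT6 group and for Sept7. The sequences are from GENCODE M21 transcripts on GRCm38, read 5′ to 3′ in the sense of the message, and capitals mark bases that differ from Sept8.
Sept8: gtgggcgaaactgggattggcaagtccacg
Sept6: gtgggGgaGacAggTTtGggcaagtccacg
Sept11: gtgggTgaGacAggTattggcaaAtccacA
Sept10: gtgggGgaGactggAattggAaaAtcAacA
Sept7: gtAggTgaaTctggACtGggAaagtcGacA
Within these 30 bases, Sept6 and Sept11 each differed from Sept8 at 6 positions, Sept10 at 7 and Sept7 at 9. Over the aligned coding bases, with gaps left out, identity to Sept8 was 74.3% for Sept11, 73.3% for Sept6, 68.5% for Sept10 and 62.1% for Sept7. The aligned bases numbered 1295, 1302, 1354 and 1236 in that order, and the Sept8 coding sequence has 484 codons. The longest exact run that a Sept8 transcript shared with another member was 26 bases, with Sept11. A megablast search of all transcripts found no other gene that shared 200 or more bases with Sept8 at 85% identity. It started from the Sept8 transcript with the longest coding sequence only. Such a search needs long exact matches to begin, so it can miss diverged copies.

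The family as a whole was expressed over a wide range, and 6 members stood well above the other 4, which stayed at or below 1.80 RPKM when read over all their exonic bases. On that reading, which is uncertain for Sept2 and Sept5 as given below, the order in siCtrl from high to low was Sept10, Sept7, Sept11, Sept9, Sept8, Sept6, Sept2, Sept5, Sept3 and Sept4. The ranges of neighbours in that order did not overlap in siCtrl, where each range rests on 2 libraries. The order depends on the exonic lengths, which pool all annotated transcripts, and transcript use was not measured. In siCtrl, Sept7 had 7228 and 7098 reads over 11631 exonic bases, and Sept10 had 2177 and 2165 reads over 3110. In siEwsr1, Sept8 stood below Sept6, and the ranges of Sept10 and Sept7, of Sept11 and Sept9, and of Sept2 and Sept5 overlapped. Summed over the 10 members, the level was 168 and 158 RPKM in siCtrl and 147, 151 and 140 RPKM in siEwsr1, so the sums did not overlap. Without Sept8 the sums were 149 and 139 RPKM against 140, 144 and 133 RPKM, and these overlapped. In bulk RNA, fewer cells expressing a gene and less RNA per cell cannot be told apart.

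**Figure D1:**
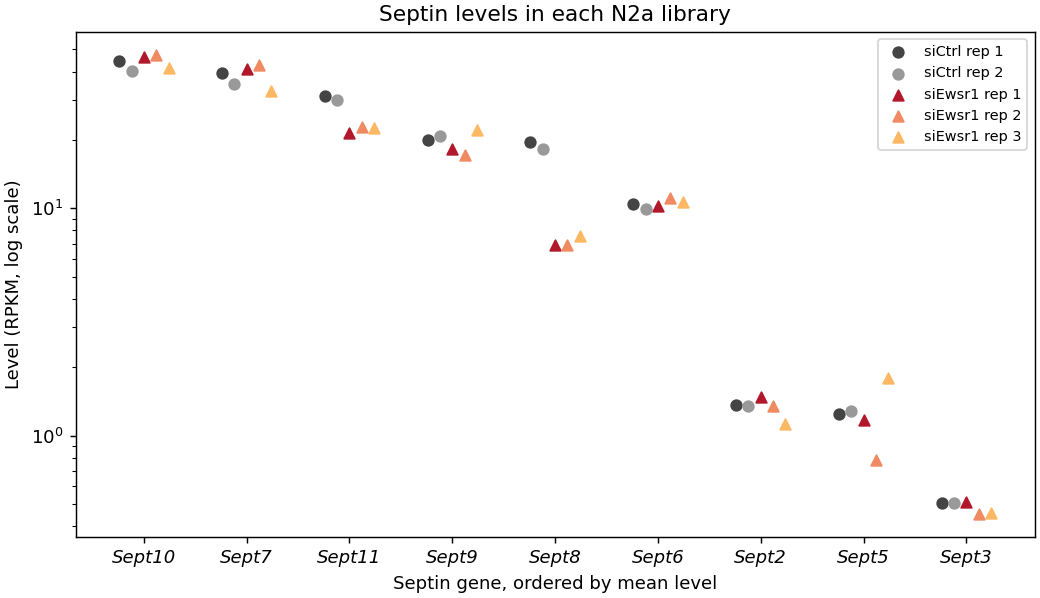
RPKM on a log scale for the 9 septin genes tested, ordered by their mean, with 1 point per library (circles, siCtrl; triangles, siEwsr1). The Sept8 triangles lie at 6.91 to 7.52 RPKM, below its circles at 18.2 and 19.6 RPKM, whereas the points of most other genes are mixed.

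Sept8, whose protein was found to bind the vesicle protein VAMP2 in rat brain, showed the largest difference of the 9 tested members. The gene (ENSMUSG00000018398) lies on the plus strand of chromosome 11, from 53519257 to 53549565 on GRCm38, and has 6087 exonic bases, none shared with another annotated gene. Its level was 19.6 and 18.2 RPKM in siCtrl and 6.91, 6.91 and 7.52 RPKM in siEwsr1. All 3 siEwsr1 libraries lay far below both siCtrl libraries, and the 3 lay close to one another. In reads, these levels were 1878 and 1919 in siCtrl and 633, 898 and 800 in siEwsr1. The siCtrl mean was 18.9 ± 0.962 RPKM (SD, n = 2) against 7.12 ± 0.351 RPKM in siEwsr1 (SD, n = 3), a log2 difference of -1.37 (SE 0.09, 95% interval -1.58 to -1.16) or -61.4%. Of the 14899 genes tested, Sept8 ranked 70 from the lowest log2 difference. Among the 7486 genes with at least 5 RPKM in siCtrl it ranked 9. Each Sept8 value was taken at its lowest whole reading.

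Sept11, which in rodent neurons is found at dendritic branch points and spine necks, was the other member that stood lower. It lies on chromosome 5, from 93093437 to 93176447 on the plus strand. Its level was 31.1 and 29.99 RPKM in siCtrl and 21.4, 22.8 and 22.6 RPKM in siEwsr1. The groups did not overlap, and the gap between them was wider than the spread within either. The log2 difference was -0.43 (SE 0.08, 95% interval -0.62 to -0.24), or -25.9%, smaller in size than that of Sept8.

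Sept6 and Sept10, the remaining paralogues of the SEPT6 group, did not stand lower. Sept6, from 36911326 to 36991794 on the minus strand of chromosome X, stood at 10.4 and 9.96 RPKM in siCtrl and at 10.2, 11.2 and 10.6 RPKM in siEwsr1. Its groups overlapped, with a log2 difference of 0.09 (SE 0.09, 95% interval -0.11 to 0.29). For siEwsr1 replicate 1 the digits of Sept6 also gave whole reads at 1.02 RPKM, and 10.2 RPKM was chosen as the reading nearest the other libraries. Sept10 had the highest mean RPKM of the members, at 44.4 and 40.2 RPKM in siCtrl and 46.4, 47.2 and 41.4 RPKM in siEwsr1. These groups overlapped as well, since siEwsr1 replicate 3 lay between the siCtrl libraries. The log2 difference of Sept10 was 0.11 (SE 0.10, 95% interval -0.12 to 0.34), and the gene lies on the minus strand of chromosome 10, from 59141627 to 59221847.

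Set against its nearest paralogues library by library, Sept8 was lower in every siEwsr1 library. Its log2 level minus the mean log2 level of Sept6, Sept10 and Sept11 was -0.31 and -0.33 in siCtrl and -1.64, -1.71 and -1.50 in siEwsr1. The siCtrl libraries were nearly alike on this measure and the siEwsr1 libraries all lay more than 1 log2 unit below them. The shift between groups was -1.30 against the 3 paralogues together, -1.46 against Sept6 alone, -1.48 against Sept10 alone and -0.94 against Sept11 alone. Sept8 made up 18.5% of the summed SEPT6-group level in each siCtrl library and 8.14%, 7.85% and 9.16% in siEwsr1. The share of Sept10 went the other way, from 42.1% and 40.9% to 54.6%, 53.6% and 50.4%, while its own level overlapped between groups. The summed level of the group was 106 and 98.4 RPKM in siCtrl and 84.96, 88.1 and 82.1 RPKM in siEwsr1, without overlap. That sum holds Sept8, so its difference is in part that of Sept8 itself. With 2 and 3 libraries the smallest exact permutation p is 0.1, and no test was run on these values.

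**Figure D2:**
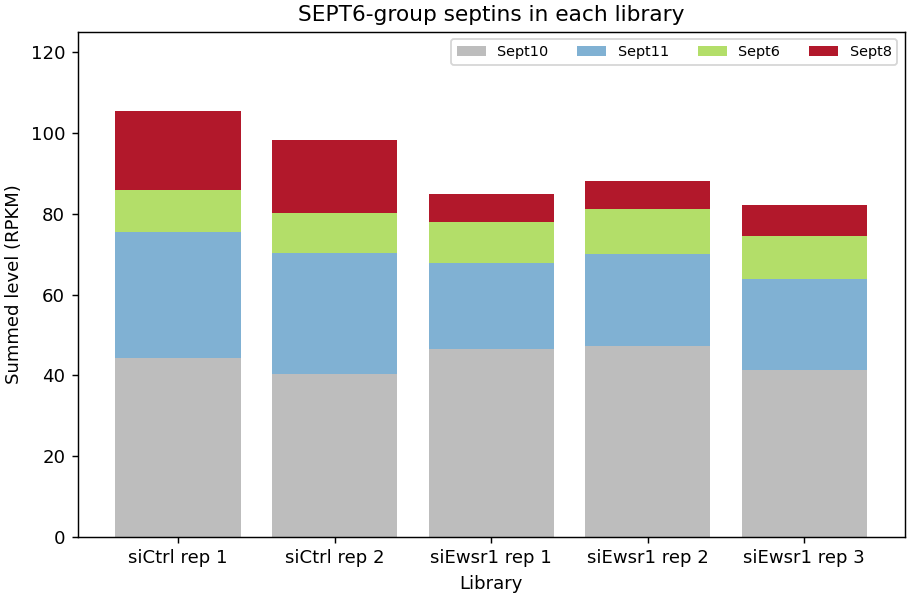
Stacked RPKM of the SEPT6-group genes Sept10, Sept11, Sept6 and Sept8 in each of the 5 libraries, with 1 bar per library and an axis from 0. The Sept8 segment takes 18.5% of each siCtrl bar and 7.85% to 9.16% of the siEwsr1 bars, and the Sept11 segment is also shorter in siEwsr1.

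Sept7, the only member of its group and a partner that SEPT6-group proteins meet in the rod, overlapped between groups. Its level was 39.4 and 35.2 RPKM in siCtrl and 40.8, 42.9 and 32.7 RPKM in siEwsr1, where replicate 3 was the lowest of all 5 libraries. The log2 difference was 0.07 (SE 0.13, 95% interval -0.21 to 0.35), and Sept7 lies on chromosome 9, from 25252439 to 25308571. The ratio of the SEPT6-group sum to Sept7 was 2.68 and 2.79 in siCtrl and 2.08, 2.05 and 2.51 in siEwsr1. All 3 siEwsr1 ratios were lower, and replicate 3 was nearest to siCtrl. The group sum holds Sept8, whose fall chose the family, so the lower ratio is no separate result.

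The SEPT3 group was carried by Sept9, whose protein can extend the rod and takes part in the last step of cell division. Sept9 (chromosome 11, 117199661 to 117362325) stood at 20.1 and 20.7 RPKM in siCtrl and at 18.3, 17.2 and 22.0 RPKM in siEwsr1. The siEwsr1 values lay on both sides of siCtrl, and the log2 difference was -0.08 (SE 0.11, 95% interval -0.31 to 0.16). The value of siEwsr1 replicate 3 also gave whole reads at 2.20 RPKM, and 22.0 RPKM was chosen as nearest the other libraries. Sept3, a septin of neurons (chromosome 15, 82274893 to 82294574), was low at 0.508 and 0.506 RPKM in siCtrl and 0.512, 0.453 and 0.458 RPKM in siEwsr1. These rest on 51 to 64 reads per library, the groups overlapped, and the log2 difference was -0.06 (SE 0.21, 95% interval -0.52 to 0.40).

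Members of the SEPT2 group were low when read over all exonic bases, and 2 of their levels are uncertain because of the annotation. Sept2, a septin of the cleavage furrow and of the ciliary base, stood at 1.36 and 1.35 RPKM in siCtrl and at 1.47, 1.35 and 1.13 RPKM in siEwsr1, with overlap and a log2 difference of -0.03 (SE 0.16). The annotation holds a second identifier named Sept2 on the same strand, which shares 3335 of the 7979 exonic bases (41.8%) and is listed at 0 in all libraries. Over the bases that are not shared, the level would be 2.34 and 2.33 RPKM in siCtrl and 2.53, 2.32 and 1.93 RPKM in siEwsr1. How reads in the shared stretch were treated is not given in the sources used here.

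Sept5, a presynaptic septin that binds syntaxin, varied between siEwsr1 libraries, at 1.25 and 1.28 RPKM in siCtrl and 1.17, 0.778 and 1.80 RPKM in siEwsr1. The siEwsr1 libraries lay on both sides of siCtrl, with a log2 difference of -0.07 and a wide 95% interval of -0.69 to 0.55. Of its 3915 exonic bases, 83.7% are shared on the same strand with Gp1bb and with the read-through gene model Gm49601, which itself held 47 to 89 reads per library. Over the 638 bases that are not shared, the level would be 7.65 and 7.88 RPKM in siCtrl and 7.19, 4.77 and 11.03 RPKM in siEwsr1, above Sept2. Sept4, whose product forms part of the sperm tail annulus, was at or below 2 reads in each library. Its reads were 0 and 2 in siCtrl and 0, 0 and 1 in siEwsr1, where 3 reads would correspond to 0.0395 to 0.0560 RPKM. The gene was not tested, and a difference in Sept4 was not detectable at this depth.

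**Figure D3:**
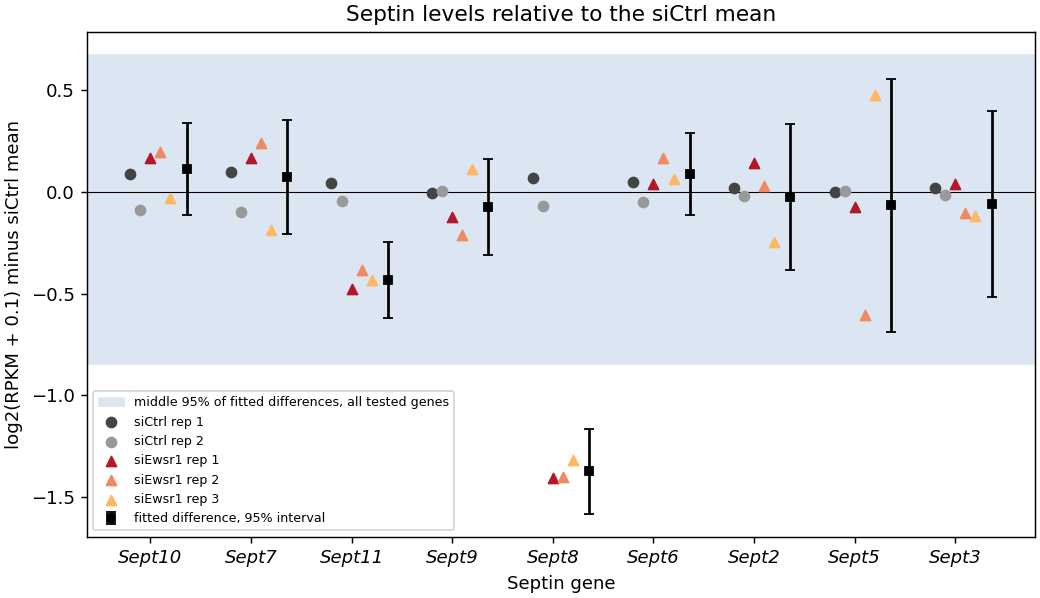
log2(RPKM + 0.1) of each library minus the siCtrl mean for the 9 tested septin genes (circles, siCtrl; triangles, siEwsr1), with the fitted difference and its 95% interval as a square with bars. The shaded band spans the middle 95% of fitted differences of all 14899 genes, -0.85 to 0.67; Sept8 at -1.37 lies below it and the other 8 lie inside it.

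Counted over the family, limma at an adjusted p under 0.05 called 2 of the 9 tested members lower in siEwsr1 (Sept8 and Sept11), 0 higher and 7 neither way. In the whole table the same rule called 5.18% of the genes tested, 2.69% lower and 2.49% higher. Because the choice of the family used this contrast, nothing is read from that count, nor from the call of any single member. The median log2 difference of the 9 members was -0.06, and that of all genes tested was -0.01. The libraries did not overlap between groups for 2 of the 9 members, both lower in siEwsr1, and for 39.9% of all genes tested, 21.3% lower and 18.6% higher. Limma no longer called Sept11 without siCtrl replicate 1 (log2 difference -0.39), without siCtrl replicate 2 (-0.48) or without siEwsr1 replicate 1 (-0.41). Those fits called 0.0751%, 0.0347% and 0.640% of all genes tested. Where 1 siCtrl library is left, it is assumed to vary like the siEwsr1 libraries. Sept11 was also not called with no filter on low values, with the lowest whole readings or with the variance trend on RPKM. Without siEwsr1 replicate 3, Sept7 had a difference of 0.20 and was called higher, in a fit that called 26.2% of all genes tested. Between the siEwsr1 libraries, replicate 3 was the lowest for Sept7, Sept10 and Sept2 and the highest for Sept9, Sept5 and Sept8.

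Some members share a short sequence in the 3′ UTR. The 7-mer GCAATTT was picked from the fold changes of these same libraries in earlier work, so finding it in genes that stood lower is no independent evidence. It is shown because it lies in both members that were lower and also in Sept6, which was not. The search covered annotated 3′ UTRs in the sense of the message, and the capitals mark the 7-mer within 30 bases.
Sept8, chr11:53543263-53543269, plus strand: gaaacctgacttGCAATTTctagagtttaa
Sept11, chr5:93176302-93176308, plus strand: cttctcttagatGCAATTTtaaagtgcccc
Sept6, chrX:36912193-36912199, minus strand: gcatgggtcacgGCAATTTgctttaggaat
The 7-mer thus occurred in 3 of the 10 members, beside 7.91% of the 21016 genes with an annotated 3′ UTR, without matching for UTR length. It lay in 2 of 6 protein-coding transcripts of Sept8, 2 of 7 of Sept11 and 1 of 4 of Sept6, and transcript use was not measured. Log2 differences of its carriers were -1.37 for Sept8, -0.43 for Sept11 and 0.09 for Sept6. A second 7-mer from the same earlier scan, TCACTGC, occurred in Sept2, Sept5 and Sept6 and in 12% of genes, and those members had log2 differences of -0.03, -0.07 and 0.09. A match is a description of the letters and was not tested as a site.

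The genes whose pattern over the 5 libraries was most like that of Sept8 were found among 11626 genes with a mean of at least 1 RPKM. Likeness was the Euclidean distance in log2 level relative to the siCtrl mean. The closest was Csrp1, a LIM-domain gene, at a distance of 0.20, with 56.5 and 61.8 RPKM in siCtrl and 20.7, 21.035 and 22.6 RPKM in siEwsr1. Next were Gm5526 at 0.27, the integrin gene Itgb3 at 0.35, the transporter gene Slc12a8 at 0.35 and the smooth muscle actin gene Acta2 at 0.36. The latter 4 were lower in level than Sept8, between 2.41 and 3.56 RPKM in siCtrl. Acta2 also stands in the list of fibroblast and mural markers, of which 6 of 8 were found. Their summed level was 3.23 to 3.44 RPKM in siCtrl and 1.16 to 1.37 RPKM in siEwsr1. Most of it was Acta2, at 2.88 and 2.63 RPKM in siCtrl and 0.784, 0.921 and 0.867 RPKM in siEwsr1, which is named here for its likeness to Sept8. Pdgfrb was also lower without overlap, at 0.324 and 0.274 RPKM in siCtrl and 0.0849, 0.0428 and 0.0940 RPKM in siEwsr1. Pdgfra overlapped between groups, at 0.215 and 0.282 RPKM in siCtrl and 0.265, 0.243 and 0.394 RPKM in siEwsr1. The collagen genes Col1a1 and Col1a2 were at or near 0, and the part of these markers in the difference of Sept8 was not tested.

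Of 35 genes that work with septins, 33 had usable values and all 33 were tested: 1 rose, 1 fell and 31 were not called. The called share, 6.06%, is near the 5.18% of the whole table and is no result about these genes. Their median log2 difference was 0.02, with 17 above 0 and 16 below. Cdc42ep3 is listed at 0 in every library, and the decimal point of Myl9 could not be settled. The list was chosen by known function, with earlier results of these data known.

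Arhgef2, which encodes a microtubule-bound exchange factor for RhoA, was the partner gene that fell. It stood at 15.4 and 13.6 RPKM in siCtrl and at 9.16, 7.70 and 9.36 RPKM in siEwsr1, without overlap. The log2 difference was -0.70 (SE 0.11, adjusted p = 0.00734, limma, Benjamini-Hochberg). The call was lost without siCtrl replicate 1 (log2 difference -0.60, adjusted p = 0.171, limma), siCtrl replicate 2 (-0.81, adjusted p = 0.104) or siEwsr1 replicate 1 (-0.74, adjusted p = 0.0502). Those fits called 11, 5 and 94 genes in the whole table, the first pair of them with 1 siCtrl library left. Over 14 alternatives the adjusted p ranged from 8.11e-10 to 0.730. The digits of siCtrl replicate 2 also gave whole reads at 1.36 RPKM, a reading that turns the difference to 0.92.

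Cd2ap, the gene of an adaptor protein that links membranes to actin, rose, from 8.34 and 7.63 RPKM in siCtrl to 12.02, 12.8 and 9.62 RPKM in siEwsr1. The groups did not overlap, with siEwsr1 replicate 3 nearest to siCtrl. The log2 difference was 0.53 (SE 0.13, adjusted p = 0.0405, limma). Cd2ap kept the call in 6 of 14 alternatives. It was lost with a pseudocount of 1 (adjusted p = 0.106, limma) and with no filter on low values (adjusted p = 0.219, limma). The same held with the lowest whole readings (adjusted p = 0.291, limma) and with the variance trend on RPKM (adjusted p = 0.122, limma). Leaving out siEwsr1 replicate 3 kept the call, with a difference of 0.66. Leaving out any other single library lost it (adjusted p up to 0.431, limma), with differences of 0.61 and 0.45 without siCtrl replicates 1 and 2 and of 0.49 and 0.44 without siEwsr1 replicates 1 and 2. In the siCtrl fits, with 1 control library left, few genes of the whole table could be called, as given for Arhgef2.

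By role the counts are too small to set against the 5.18% called in the whole table. Of the 11 genes of cytokinesis 0 were called, among them Anln, Ect2, Kif23, Prc1 and Aurkb, with log2 differences from -0.29 to 0.15. Of the Borg genes, whose proteins bind septins downstream of Cdc42, and Cdc42 itself, 0 of 5 tested were called. Cdc42ep2, named after its values were seen, was not called (log2 difference 1.43, SE 0.46, adjusted p = 0.105, limma). It rests on 2 and 4 reads in siCtrl and 9, 22 and 10 reads in siEwsr1, and it met the filter on low values through siEwsr1 alone. Among the 11 genes of adaptors, microtubules and membrane traffic, which include the syntaxin gene Stx1a and Snap25, Cd2ap was the single call.

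**Figure D4:**
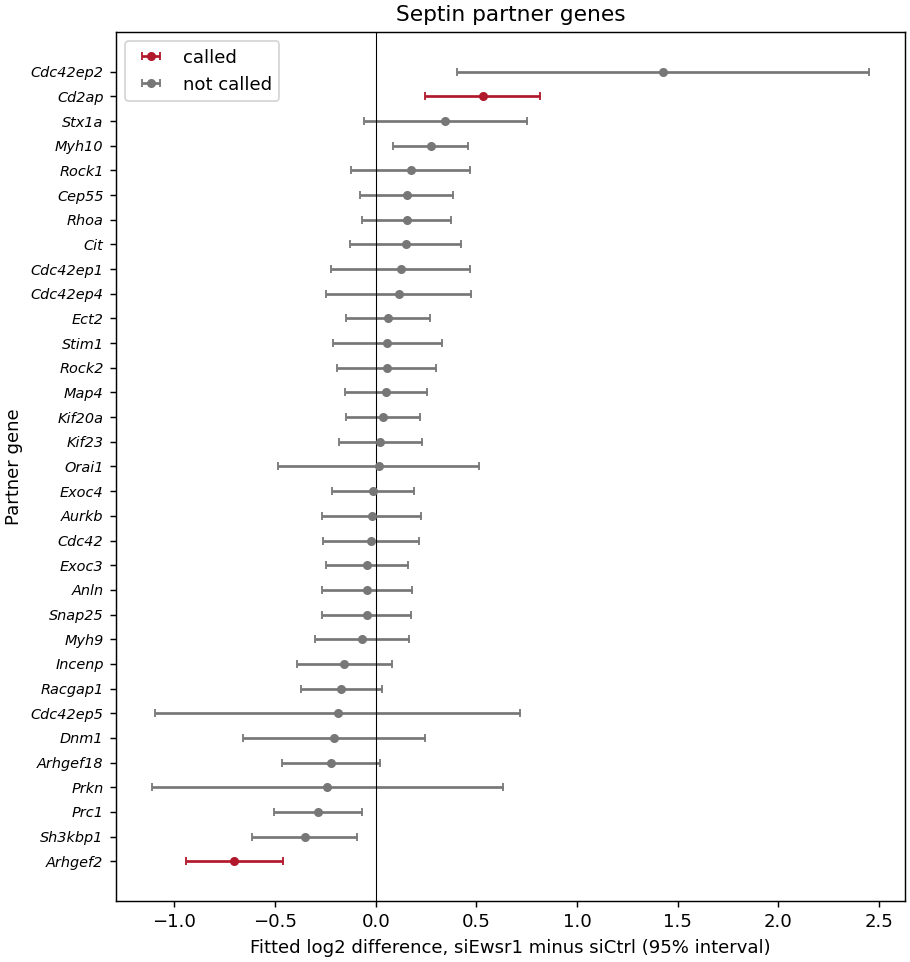
Fitted log2 difference (siEwsr1 minus siCtrl) with its 95% interval for the 33 tested partner genes, ordered by value, with called genes in red. Cd2ap at 0.53 and Arhgef2 at -0.70 are called, and the 31 grey genes range from -0.35 to 1.43.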

How the data were processed

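The authors deposited 1 table per library with 54838 Ensembl identifiers and no header naming the unit. Per the submitters' processing notes, STAR 2.5.2b, featureCounts 1.5.1 and edgeR were used on GRCm38; the sources used here give no annotation release, strand setting or rule for multi-mapping reads. The deposited values, recorded as another unit, behave as RPKM in which values of 1 or more lost the decimal point. Each was restored by requiring whole reads, given GENCODE M21 exonic lengths and a library total solved from the intact values (98.5% to 98.6% whole within 1e-06 reads). Where several positions gave whole reads, the one that brought libraries closest was chosen without group labels. That choice draws libraries together and can hide changes near 10-fold. In 108 genes the choice was uncertain, and these were left out.

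Differences are from limma 3.58.1 (R 4.3.3) on log2(RPKM + 0.1), with trimmed-mean scaling, at least 10 reads in 2 libraries, no term but the group, robust moderation with the variance trend on reads and Benjamini-Hochberg adjustment, two-sided, called under 0.05. The pseudocount understates changes of low genes. Both steps were tested on simulated data. All 10 members were named, as were partner genes that were called and the 5 genes most like Sept8. Members and lists were chosen with earlier results of these data known. Alternatives are given in the closing section.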

Additional observations from a re-analysis of the deposited data

How the results depend on the processing

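The log2 difference of Sept8, which chose the family, was -1.27 with a pseudocount of 1 and -1.44 to -1.31 without 1 library. Its shift against the mean of Sept6, Sept10 and Sept11 was -1.20 with a pseudocount of 1 and -1.35 to -1.25 without 1 library. The drop in its share of the SEPT6 group stayed between -10.5 and -9.81 percentage points over 8 alternatives. The summed family level differed by -22.1 to -11.4 RPKM without 1 library.

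When each library was given its lowest whole reading, the shift of Sept8 against its paralogues was -0.94 and the family sum differed by -26.4 RPKM. In that setting Sept6 stood at -0.97 and Sept9 at -1.16, by construction, since 1 siEwsr1 library of each then takes a 10-fold lower value, and Arhgef2 turned to 0.92. Members called lower were then 1, partner genes 0 in either direction, and 49 genes of the whole table were called higher and 7 lower.

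Members called lower were also 1 with no filter on low values, with a variance trend on RPKM (the trend on reads was kept as the main one after both had been run, so this choice was made after seeing the data), and in 3 of the 5 fits without 1 library (range 1 to 2), those without siCtrl replicate 1, siCtrl replicate 2 and siEwsr1 replicate 1. Members called higher were 0 to 1 without 1 library. Partner genes called were 0 higher and 0 lower with no filter, 0 higher with a pseudocount of 1 and with the trend on RPKM, and 0 to 4 higher and 0 to 8 lower without 1 library. In the whole table the calls were 20 higher and 40 lower with no filter, 169 and 207 with a pseudocount of 1, 118 and 142 with the trend on RPKM, and 2 to 1902 higher and 3 to 1910 lower without 1 library; the fit without siEwsr1 replicate 3 gave the most. The cause of these shifts was not tested.

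With the replicate number as a block, 1664 genes were called higher and 1644 lower, and 4 partner genes each way. In that fit siEwsr1 replicate 3 has no siCtrl library of its number, so it adds nothing to the group difference. The fit that left this library out called 1902 higher and 1910 lower. The groups share 2 numbers, and deviations of same-numbered libraries correlated at 0.03 for replicate 1 and -0.12 for replicate 2, so the numbers were not taken to pair the libraries. The count models planned as alternatives were not run, since the deposited values are not counts. Levels under 1 RPKM rest on few reads, which limits Sept3, Sept4 and part of Sept5.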

Other observations

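Other septin genes were scarce in these cells. Sept1 stood at 0.803 and 0.690 RPKM in siCtrl and at 0.577, 0.560 and 0.497 RPKM in siEwsr1, on 24 to 35 reads per library. Its groups did not overlap, and it did not pass the test (log2 difference -0.37, SE 0.26, adjusted p = 0.439, limma). Sept12 had reads in 1 library, siEwsr1 replicate 3, at 0.0422 RPKM. Sept14, which in human belongs to the SEPT6 group, reached at most 0.135 RPKM, on 5 reads.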
